A study of Mus musculus with 8 samples.

Results

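Matrix Gla protein and the genes of the elastic fibre were followed in RNA of cultured mouse cells that the labels call aortic endothelial cells. The genes were 8 (Mgp, Eln, Fbn1, Fbln1, Fbln2, Fbln5, Lox and Loxl1). A probe set, the group of short probes that reads a transcript, was taken where the array's annotation gave it exactly 1 of these symbols. That held for 11 of the 12488 probe sets of the table and for 6 of the 8 genes, and Fbn1 and Fbln5 were not analysed here. Subconfluent cells, at under 50% confluency, were set against cells of a mature confluent monolayer, with 4 samples per group, the same number of cells in each sample and 1 Affymetrix array per sample. The labels name no strain, genetic change, passage or added agent for either group. They number the samples of both groups as experiments 1 to 4 and do not say whether the cultures came from separate animals, so p-values measure the spread between these samples.

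Elastic fibres give the aorta its recoil. They consist of a core of cross-linked elastin laid on microfibrils of fibrillin, with fibulins at the core and at its border. Lysyl oxidases join tropoelastin molecules to each other and cross-link collagen as well. Matrix Gla protein is a small secreted protein that carries carboxylated glutamate residues made with vitamin K. It keeps arteries from calcifying, and mice that lack it calcify their elastic arteries along the elastic lamellae. In the vessel wall most of these proteins are made by smooth muscle cells and adventitial fibroblasts, and endothelial cells make some of them too.

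Each array's signals had been brought to a common target of 500, and the median signal over all probe sets was between 169.1 and 187.4. The scale factors that this took ran from 3.05 to 13.3. Among the 20 endothelial marker genes on the array, 3 reached a mean signal of 200 (15.0%), against 13 of 17 markers of fibroblasts and pericytes (76.5%) and 56.6% of all genes. The defining endothelial markers Cdh5 and Vwf stood at 5.5 to 18.1 and 12.6 to 27.7 on subconfluent arrays, against 6.9 to 29.5 and 21.6 to 30.9 on confluent arrays. The 3 endothelial markers above the minimum were Eng, Cd34 and Procr. Eng, which fibroblasts also make, stood at 695.1 to 878.2 against 808.5 to 954.1. Cd34 stood at 1060.5 to 2544.6 against 613.0 to 2169.1, and Procr at 195.2 to 454.7 against 127.5 to 331.9. Selp, under the minimum by its mean, stood at 209.7 to 358.8 against 44.6 to 154.1. No marker was listed at 0. The data therefore do not bear out the labelled cell type by its defining markers. The arrays came from 4 chip lots. Lot A held experiment 1 of both groups, lot C held subconfluent arrays 3 and 4 and confluent array 3, and the other lots held arrays of 1 group each.

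Of the 6 genes on the array, 2 fell in subconfluent cells and 0 rose. Mgp fell most, Eln less, and Fbln1, Fbln2 and Lox did not pass the test. Testing was limited to probe sets averaging 200 or more across the 8 arrays, and 5 of the 6 genes had one. Loxl1 lay just under that minimum, at a mean of 189.6, and Eln just above it, at 250.6. Mgp and Eln reached the minimum only through their confluent arrays. Over all 4670 genes tested, 4.39% were lower and 2.83% higher in subconfluent cells at an adjusted p under 0.05 (limma on log2 values of signal plus 50, with p-values adjusted by Benjamini-Hochberg across the whole tested table). The median log2 difference of the 5 tested genes was -0.36, beside 0.00 over all tested genes. In bulk RNA, fewer cells of a type and less transcript per cell cannot be told apart.

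Mgp, the inhibitor of calcification, was dim in every subconfluent culture and well measured in every confluent one. Its probe set, 93866_s_at, had signals of 64.7, 98.2, 47.7 and 11.6 in subconfluent cells (experiments 1 to 4), against 864.1, 1750.1, 1528.7 and 552.8 in confluent cells. The groups did not overlap: the brightest subconfluent value lay below the dimmest confluent one, which was so for 9.25% of all tested genes. On each of the 4 subconfluent arrays Mgp lay under the array's median signal, and on each of the 4 confluent arrays above it. The means were 55.5 ± 36.0 in subconfluent and 1174 ± 560 in confluent cells (SD, n = 4 each). The log2 difference was -3.48 ± 0.36 (SE, limma adjusted p = 0.00105), which is 11.1-fold lower, with a 95% interval from 6.39-fold to 19.4-fold.

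The size of that fall depends on the constant added before the log, because the subconfluent signals lie near the dim end of the array. With 1 in place of 50 the log2 difference of Mgp was -4.57, and with 150 it was -2.60, and it passed limma's test with both (adjusted p = 0.00327 and 0.00138). The probe set's name carries the ending that marks probes shared with other transcripts, and no other probe set of Mgp was read here. Within the numbered experiments Mgp was 7.97-fold, 12.1-fold, 16.2-fold and 9.79-fold lower in the subconfluent sample. Since the groups do not overlap, this direction was fixed for each experiment. Lot A alone, which holds the same arrays as experiment 1, gave a log2 difference of -2.99 for Mgp. Lot C, with 2 subconfluent arrays and 1 confluent array, gave -4.35.

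**Figure D1:**
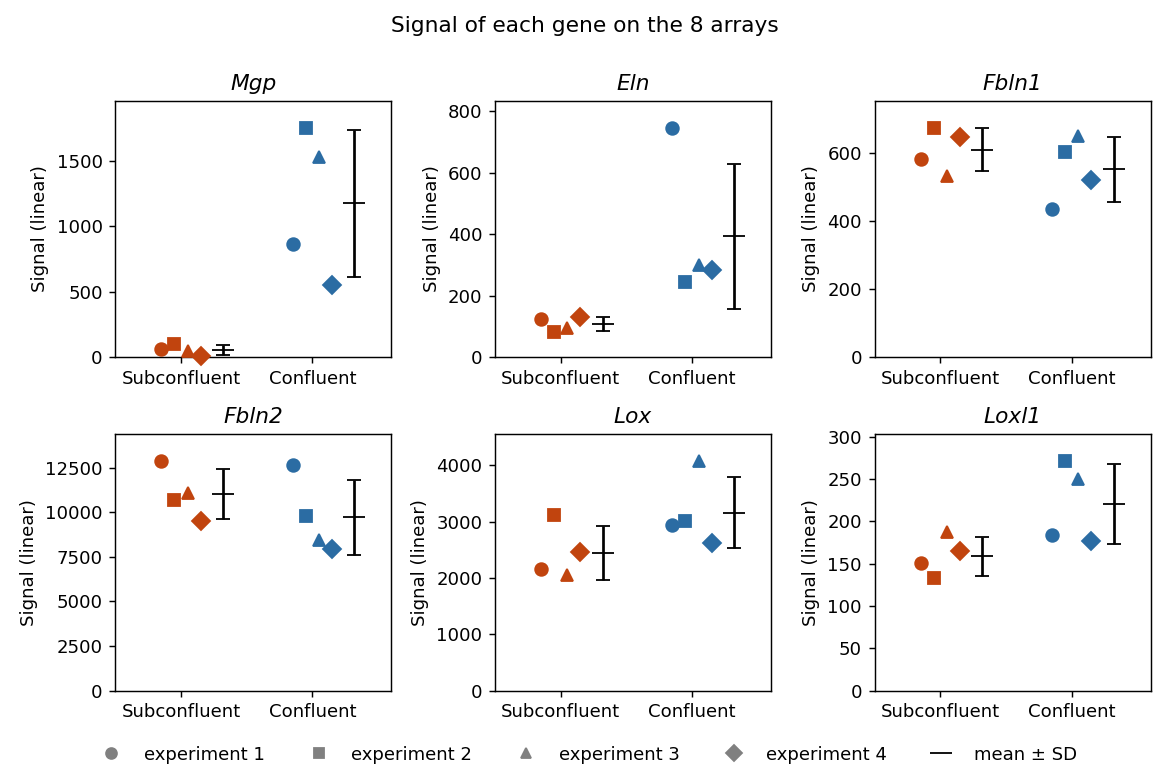
Signal on a linear scale of the probe set that stands for each of the 6 genes on the 8 arrays, subconfluent on the left and confluent on the right of each panel. Symbols mark the experiment number and the bars show the mean ± SD of 4 arrays. For Mgp and Eln every subconfluent value lies below every confluent value, and for the other genes the groups overlap.

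Eln encodes tropoelastin, the soluble precursor of the fibre's core. Its brighter probe set, 92836_at, had signals of 124.1, 81.3, 95.7 and 130.8 in subconfluent cells, against 744.9, 245.4, 299.3 and 283.2 in confluent cells. The subconfluent values all lay below the confluent ones, as for 9.25% of all tested genes, and confluent array 1 stood far above the other 3 confluent arrays. The mean was 108 ± 23.4 in subconfluent and 393.2 ± 236 in confluent cells (SD, n = 4 each). The log2 difference was -1.38 ± 0.30 (SE, limma adjusted p = 0.0274), which is 2.60-fold lower, with a 95% interval from 1.64-fold to 4.10-fold.

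In fits that leave out the experiment number, the call of Eln depends on the signal minimum and on single arrays. It ended when all probe sets were tested whatever their signal (limma adjusted p = 0.0519), and, with the minimum, without confluent array 3 or 4 or without any 1 of the subconfluent arrays (adjusted p from 0.0504 to 0.0683). Without confluent array 1 the log2 difference was -1.05 and the adjusted p was 0.0276, but Eln then averaged 180.0, under the minimum that all 8 arrays had let it pass, and with no minimum that fit gave 0.0607. Of the 8 fits with no minimum and without 1 array, Eln passed in 1, without confluent array 2 (adjusted p = 0.0428), and Mgp passed in all 8 (adjusted p up to 0.0112). Eln was lower in the subconfluent sample of each experiment, as groups that do not overlap require, by 4.57-fold, 2.25-fold, 2.40-fold and 1.84-fold. For Eln, lot A alone, the same arrays as experiment 1, gave -2.19 and lot C alone -1.11 on the log2 scale. With the experiment number as a block both genes passed (limma adjusted p = 4.67e-05 for Mgp and 0.00595 for Eln), in a fit that called 12.1% of all tested genes lower and 10.1% higher. Eln also passed with that block and without experiment 1, 2, 3 or 4 (limma adjusted p = 0.0229, 0.0121, 0.0270 and 0.0180). The minimum there was still taken over all 8 arrays. With chip lot as a fixed or a random block the limma adjusted p of Eln was 0.0211 and 0.00916.

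A second probe set of Eln, 92207_at, gave almost no signal, and it does not add to the result. It read 4.8, 6.6, 3.2 and 10.1 in subconfluent cells, against 9.0, 194.3, 5.2 and 4.3 in confluent cells. Confluent array 2 alone was above the rest, and the log2 difference of -0.53 fell short of the test when probe sets of all signals were fitted (limma adjusted p = 0.590).

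Fbln2, an elastin-binding fibulin also found in basement membranes, was bright on all 8 arrays. Its probe set, 100928_at, had signals of 12850, 10664, 11097 and 9506 in subconfluent cells, against 12659, 9807, 8428 and 7946 in confluent cells. The ranges overlapped widely, although the subconfluent sample was the higher one in each of the 4 experiments, by 0.02, 0.12, 0.39 and 0.26 on the log2 scale. The log2 difference over all arrays was 0.20, with a 95% interval from -0.18 to 0.57 (limma adjusted p = 0.513, and adjusted p = 0.210 with the experiment number as a block). That interval spans changes from 0.886 to 1.49 times the confluent level.

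Fbln1, a fibulin of elastic fibres and of the matrix around vessels, had 4 probe sets, of which 2 were bright enough to test. The brighter one, 94308_at, read 583.0, 673.2, 533.3 and 647.1 in subconfluent cells, against 435.1, 601.7, 650.1 and 519.3 in confluent cells. Its log2 difference was 0.14, with a 95% interval from -0.22 to 0.50 (limma adjusted p = 0.646). The other tested one, 94309_g_at, read 468.3, 568.9, 426.4 and 344.3 against 489.4, 728.8, 479.8 and 403.9. Its difference had the opposite sign, -0.19, with an interval from -0.63 to 0.26 (limma adjusted p = 0.625). The groups overlapped on both, so no direction can be given for Fbln1. The remaining 2 probe sets were dim, with signals from 15.1 to 90.4 in subconfluent and from 16.7 to 118.5 in confluent cells, and differences of -0.05 each.

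The lysyl oxidase genes had slightly lower means in subconfluent cells, within the spread of the arrays. Lox, the founding member of the family (160095_at), read 2159, 3114, 2049 and 2462 in subconfluent cells, against 2948, 3008, 4067 and 2622 in confluent cells. It was lower in the subconfluent sample of experiments 1, 3 and 4 and slightly higher in that of experiment 2. The log2 difference was -0.36, with a 95% interval from -0.77 to 0.05 (limma adjusted p = 0.246). Its second probe set, whose name ends in the mark for family-wide probes, read 54.2 to 265.4 in subconfluent and 42.5 to 181.8 in confluent cells, with a difference of -0.01.

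Loxl1 (103850_at), a lysyl oxidase that fibulin-5 tethers to elastic fibres, was dim in both groups. It read 150.8, 133.1, 187.7 and 164.5 in subconfluent cells, against 183.3, 270.7, 250.1 and 176.2 in confluent cells. The subconfluent sample was lower in each of the 4 experiments, and the groups overlapped. The log2 difference of -0.36 had a 95% interval from -0.82 to 0.10 in the fit over probe sets of all signals (limma adjusted p = 0.437).

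**Figure D2:**
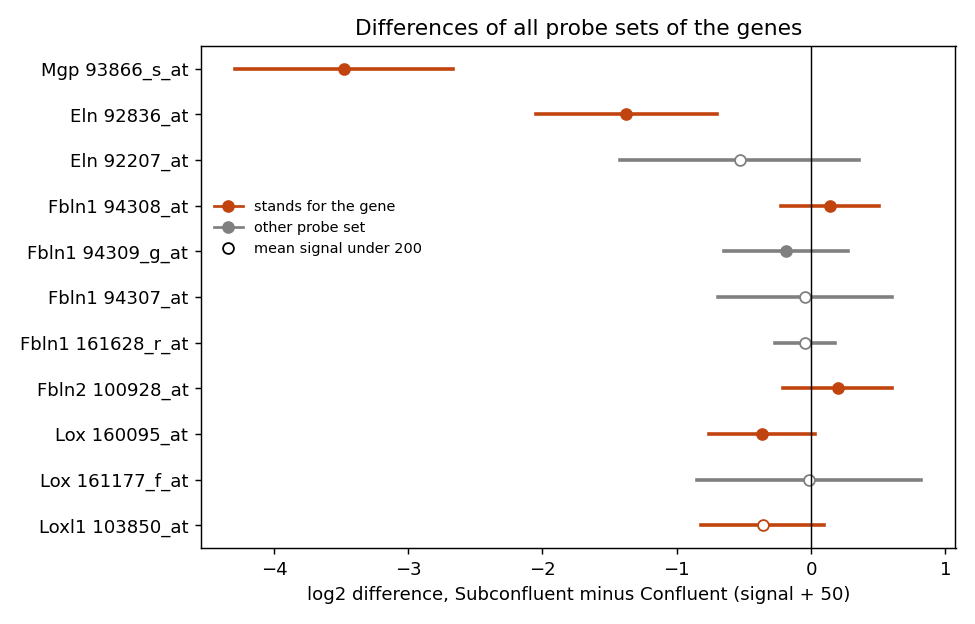
Log2 difference, subconfluent minus confluent, of all 11 probe sets of the 6 genes, with 95% intervals from the limma fit over probe sets of all signals. Open circles mark probe sets with a mean signal under 200. The intervals of Mgp and of the brighter Eln probe set lie below 0, and the other 9 include 0.

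Set side by side, the change of Mgp minus that of Eln was -2.10 on the log2 scale, and Mgp minus Lox, Loxl1, Fbln1 and Fbln2 gave -3.11, -3.12, -3.62 and -3.67. These gaps are a description, since Mgp was singled out after its fall was known.

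**Figure D3:**
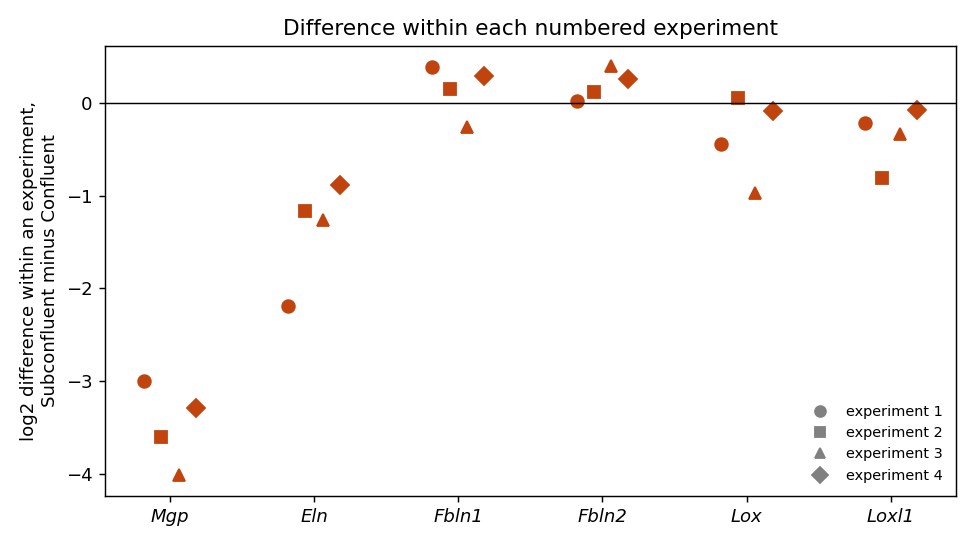
Log2 difference, subconfluent minus confluent, within each of the 4 numbered experiments for the 6 genes, 1 symbol per experiment. Mgp lies between -4.01 and -2.99 and Eln between -2.19 and -0.88, and the other genes lie between -0.97 and 0.39.

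Other genes of elastic fibres, of matrix cross-linking, of the vitamin K cycle, of mineral handling and of neighbouring pathways were read from the same fit. The 7 lists held 84 genes on the array, of which 49 were tested. Of these 7 fell (14.3%) and 3 rose (6.12%), against the 4.39% and 2.83% of all tested genes. With the experiment number as a block 12 of the 49 fell and 6 rose, in a fit that called 12.1% of all tested genes lower and 10.1% higher. The lists were chosen with results of these data known, so the shares are a description.

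Among other proteins of microfibrils and elastic fibres 2 of 6 tested genes fell and 0 rose, with a median log2 difference of -0.47. Mfap2, which encodes a microfibril protein that binds fibrillin, read 141.4, 113.9, 170.6 and 118.0 in subconfluent cells, against 530.3, 336.9, 238.8 and 235.0 in confluent cells. The subconfluent values all lay below the confluent ones, as for 9.25% of all tested genes, and confluent array 1 was the highest, as for Eln. Mfap2 fell by 1.00 on the log2 scale (limma adjusted p = 0.0401). It too reached the signal minimum only through the confluent arrays. Its call ended with no minimum (limma adjusted p = 0.0767), with chip lot as a fixed block (0.0669) and in each fit without 1 array (0.0523 to 0.0960). Clu, which encodes clusterin, a secreted chaperone that occurs on elastic fibres, fell by 2.67 (limma adjusted p = 0.0163). The fibrillin-binding protein gene Ltbp4, which promotes elastin assembly, and the proteoglycan gene Bgn were at -0.58 and -0.36 and did not pass (limma adjusted p = 0.151 and 0.167). With the experiment number as a block both passed (limma adjusted p = 0.0378 and 0.0300). When chip lot was a fixed block, 2 genes of this list were called lower, Mfap2 not among them, and as a random block 3. Fbn2, which encodes the second fibrillin, was dim, at 12.1 to 81.2 in subconfluent and 13.9 to 60.1 in confluent cells.

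Among genes that activate or assist lysyl oxidases 1 of 5 tested fell and 0 rose, with a median of -0.26. The one that fell was Pcolce, which encodes an enhancer of the proteinase that trims procollagen (-0.91, limma adjusted p = 0.0470). Its call was kept in 1 of 8 fits without 1 array, the one without subconfluent array 3 (adjusted p = 0.0101), and the others gave up to 0.112. It also ended with no signal minimum and with chip lot as a fixed block (limma adjusted p = 0.0847 and 0.0814). When chip lot was a random block, 1 gene of this list was called lower. Bmp1, which encodes that proteinase and also activates Lox, was at -0.26. Atp7a, which delivers the copper that lysyl oxidases need, was at -0.45, and Atox1, which encodes a copper chaperone, was at 0.07. None of these 3 passed (limma adjusted p = 0.435, 0.164 and 0.884).

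Among vitamin K cycle enzymes and other Gla proteins 1 of 7 tested genes fell and 1 rose, with a median of -0.08. Gas6, which encodes a Gla protein that is the ligand of the Axl receptor, read 271.7, 314.1, 387.1 and 484.6 in subconfluent cells, against 3605.5, 1204.9, 4159.7 and 3906.8 in confluent cells. It fell by 2.86 (limma adjusted p = 0.00203). The Gla protein genes F7, Proc and Prrg2 were at 0.10, -0.08 and 0.02 and did not pass (limma adjusted p = 0.765, 0.916 and 0.968). Vkorc1, the enzyme gene that recycles vitamin K, and Pros1, which encodes the Gla protein S, were at -0.72 and -0.97 and did not pass (limma adjusted p = 0.0794 and 0.175; 0.0226 and 0.0144 with the experiment number as a block). Nqo1, a quinone reductase that can also reduce vitamin K, rose by 1.29 (limma adjusted p = 0.00449). It reached the signal minimum only through the subconfluent arrays, with a mean of 432.3 against 145.9 in confluent cells. With no minimum it still passed (limma adjusted p = 0.0136). Ggcx, the carboxylase that makes the Gla residues, lay under the signal minimum, at 92.8 to 123.3 in subconfluent and 143.2 to 225.2 in confluent cells.

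Among regulators of mineral formation 1 of 4 tested genes rose and 0 fell, with a median of 0.47. It was Slc20a1, a phosphate transporter gene linked to calcification of smooth muscle cells, at 1.68 (limma adjusted p = 0.0181). Slc20a1 also reached the signal minimum only through the subconfluent arrays, with a mean of 561.8 against 156.4, and passed with no minimum (limma adjusted p = 0.0350). Its call ended without subconfluent array 2 or 4 (adjusted p up to 0.0538). Ank, a gene of pyrophosphate export, was at 0.71, Nt5e at 0.24 and the phosphatase gene Alpl at -0.33, and these did not pass (limma adjusted p = 0.175, 0.780 and 0.696), although Ank passed with the experiment number as a block (adjusted p = 0.0223). In the BMP pathway, whose ligands Mgp binds, 1 of 11 tested genes rose and 0 fell, with a median of 0.13. Id1, a target gene of BMP signalling, read 4488, 2622, 2452 and 3269 in subconfluent cells, against 1382, 1900, 1077 and 1267 in confluent cells. It rose by 1.15 (limma adjusted p = 0.0188), a call that ended without subconfluent array 4, confluent array 3 or confluent array 4 (adjusted p up to 0.0567). The BMP antagonist gene Grem1 was at 1.21, and Id3 and the inhibitory Smad6 were at 0.53 and 0.49, none past the threshold (limma adjusted p = 0.109, 0.140 and 0.314). With the block Grem1 and Id3 passed (limma adjusted p = 0.0123 and 0.0341).

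In the TGF-beta list 1 of 7 tested genes fell and 0 rose, with a median of 0.04. It was the ligand gene Tgfb3 (-0.95, limma adjusted p = 0.0179), while Smad2, Smad7 and Itgb5 were at 0.48, 0.41 and 0.39 and did not pass (limma adjusted p = 0.134, 0.226 and 0.279). The call of Tgfb3 ended without subconfluent array 4 or confluent array 3 (adjusted p up to 0.0525). Among elastin-degrading proteases and their inhibitors 2 of 9 tested genes fell and 0 rose, with a median of -0.31. They were Cst3, which encodes an inhibitor of cathepsins (-0.71, limma adjusted p = 0.0317), and the membrane metalloproteinase gene Mmp14 (-0.77, limma adjusted p = 0.0470). Cst3 kept its call only without subconfluent array 3 or confluent array 2 among the fits without 1 array (otherwise up to 0.0781), and Mmp14 only without confluent array 2 (otherwise up to 0.115). Both calls ended with no signal minimum (adjusted p = 0.0648 and 0.0743). The elastase genes Ctsk and Elane were at -0.77 and -0.28 (limma adjusted p = 0.0532 and 0.348), and Ctsk passed with the block (adjusted p = 0.00581). Over all 7 lists, all 10 called genes kept their sign within lots A and C, and all but Mmp14 in each of the 4 experiments. For the genes other than Mmp14 this adds nothing, since groups that do not overlap fix the sign in every experiment and lot. Of the 10 genes, 3 (Clu, Gas6 and Nqo1) kept their call in all 8 fits without 1 array. Each of the 8 arrays ended at least 1 of the other 7 calls, with an adjusted p up to 0.115.

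**Figure D4:**
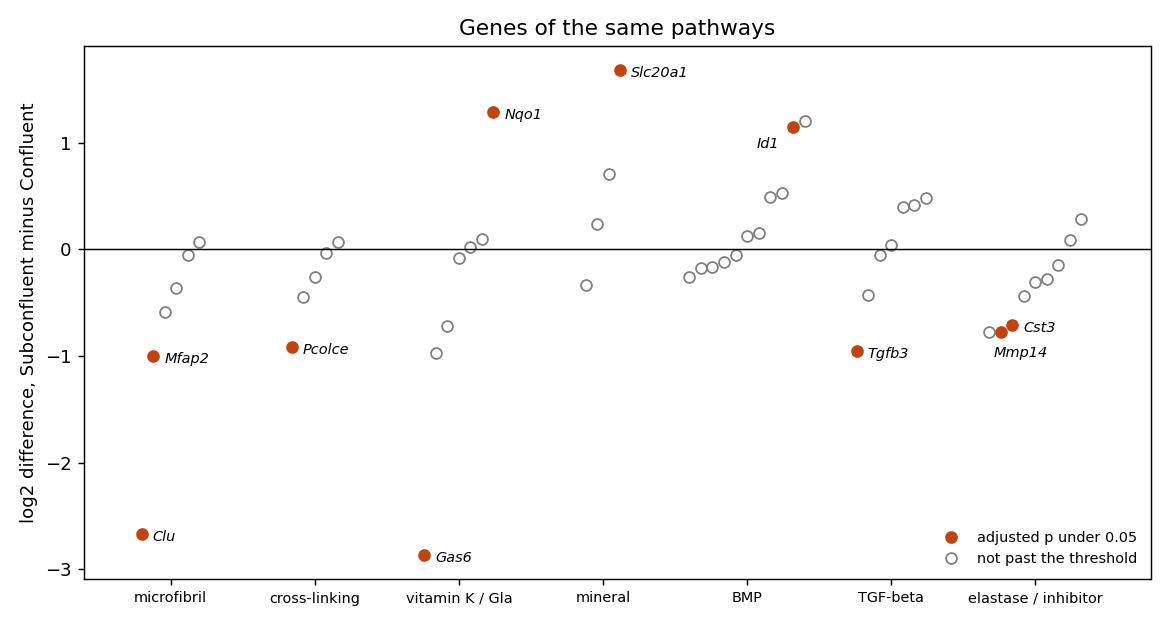
Log2 difference, subconfluent minus confluent, of the 49 tested genes in 7 pathway lists, ordered by value within a list. Filled and named points passed limma's adjusted p threshold of 0.05, with 7 below 0 and 3 above 0.

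Some markers of fibroblasts and pericytes fell with Mgp and Eln. The summed signal of the 17 fibroblast and pericyte markers was 33214 to 47364.5 on subconfluent arrays, against 64288 to 90386 on confluent arrays. Col1a1, Col1a2 and Dcn were the brightest of them. Of the 13 tested genes 4 fell, 0 rose and 9 were not called, against 4.39% lower and 2.83% higher over all tested genes. A negative log2 difference was seen for 11 of the 13, with Twist1 at -0.06, while S100a4 was at 0.005 and Prrx1 at 0.30. The sum of the 9 smooth muscle markers was 2358 to 10799 against 3694 to 5627, and that of the 20 endothelial markers 3508 to 4633 against 2698 to 4688, both with overlap. The 8 epithelial and mesothelial markers summed to 1628.8 to 2415.5 against 1942.7 to 5488.1, with overlap. The sum of the 9 macrophage markers was 1879.9 to 2505.1 against 2652.7 to 3983.4, also without overlap. Most of that sum was Cd14, at 1292.0 to 1863.7 against 1886.7 to 3275.9. Of the macrophage markers only Cd14 was tested (-0.70, limma adjusted p = 0.0563, and 0.0228 with the experiment number as a block). The smooth muscle markers went different ways: Mylk fell by 1.84 (limma adjusted p = 0.0163), while Tagln was at 1.47 and Acta2 at 1.14, short of the threshold (limma adjusted p = 0.108 and 0.228). Blocking on the experiment number gave them 0.0102 and 0.0172. Chondrocyte and osteoblast markers, which include other cells that make Mgp, had 1 of 6 genes above the signal minimum and sums of 396.5 to 839 against 378.2 to 815. The part of fibroblast-like cells in the fall of Mgp and Eln was not tested.

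The genes whose profile over the 8 arrays lay nearest to that of Mgp were Gas1, Gstt1, Apoe, Fndc1 and Hp. Nearness was the root mean square difference of log2 values centred on each gene's mean, searched over the 4669 other genes tested, and it was 0.68 for Gas1, 0.83 for Gstt1, 0.85 for Apoe, 0.90 for Fndc1 and 0.92 for Hp. Their log2 differences were -3.01, -2.67, -3.12, -2.15 and -3.25. Gas1 averaged 860 in subconfluent and 6629 in confluent cells. Nearest to Eln were Ccng2, Guca1a, H2-K1, C1ra and Lgmn, with root mean square differences from 0.15 to 0.19 and log2 differences of -1.54, -1.27, -1.24, -1.61 and -1.37. This distance grows with the size of a gene's change, so its values for Mgp and Eln are not on one footing. A small distance also requires a similar fall, so the log2 differences of the named neighbours follow from how they were picked.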

How the data were processed

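Per the labels, the authors derived a linear signal for every probe set with Affymetrix's statistical algorithm and scaled it to a target of 500. In the table each array's mean after trimming 2% at both ends was 500 to the nearest whole number, so no further normalization was applied. Detection calls and genome positions were not used here, and the software version is not given in the sources used here. Symbols came from the array's annotation: 10833 of 12422 non-control probe sets had 1 symbol, 396 several and 1193 none, and 66 controls were left out. Probe sets averaging 200 or more (6007, for 4670 genes) were tested on log2(signal + 50) as subconfluent minus confluent. The tool was limma 3.58.1, run in R 4.3.3 (functions lmFit and eBayes with variance trend, two-sided, 6 residual degrees of freedom). The fit was checked on simulated data with independent noise on each array, so that check does not cover arrays that deviate together. The probe set of highest mean signal stood for its gene, and intervals are the fit's at 95%. Arrays of the same experiment number deviated together from their group means (correlations of 0.486, 0.357, 0.516 and 0.348, and at most 0.0681 with other numbers), so the numbers were taken as pairs and a blocked fit was run as an alternative. Centring on the group means by itself lowers the correlations with other numbers. The arrays of experiment 1 and those of experiment 3, whose correlations were highest, also shared a chip lot within the pair. Named were the members, up to 4 genes of smallest p per pathway list, and the 5 genes nearest in profile to Mgp and to Eln. Ggcx, Fbn2, F7, Proc, Prrg2 and the markers were named for context after their values were seen. The members and lists were chosen with earlier results of these data known. Figures were drawn with matplotlib 3.10.9 in Python 3.11.15. The number of arrays limits the precision.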

Additional observations from a re-analysis of the deposited data

Results flagged for a closer look

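Both arrays that stood apart did so for Eln, out of 22 groups of 4 arrays checked, where chance flags about 1 in 20 groups. Confluent array 1 had an Eln signal of 744.9 on the brighter probe set, against 245.4 to 299.3 on the other confluent arrays. On the dim second probe set, confluent array 2 had a signal of 194.3, against 4.3 to 9.0 on the others. The high array differs between the 2 probe sets. In each case its gap to the nearest array, relative to the group's range on the log2 scale, was above Dixon's 95% value for 4 samples.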

How the results depend on the processing

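Mgp passed limma's test in all 22 other fits, with log2 differences from -4.57 to -2.60, and in 8 further fits chosen after seeing the data, with no filter and without 1 array; the exact test gave its smallest p. Eln passed in 1 of those 8 and was -1.43, -1.29, -1.34 and -1.44 without subconfluent arrays 1 to 4 and -1.05, -1.45 and -1.47 without confluent arrays 1, 3 and 4, where it did not pass. Eln kept its direction in all alternatives. It lost its call without a filter (-1.38, adjusted p = 0.0519) and in 6 of 8 fits without 1 array, where its value ran from -1.53 to -1.05, and a filter of 500 left it untested. Fbln1, Fbln2 and Lox were called in no alternative; Lox came closest, at an adjusted p of 0.0508. Without 1 array Mgp ran from -3.77 to -3.24. Within lot A Eln was -2.19 and Fbln1 0.38, and within lot C Mgp was -4.35, Lox -0.84 and Fbln1 -0.13. Other probe sets gave -0.53 for Eln, -0.014 for Lox and -0.19 for Fbln1, which turned its sign. Loxl1 ran from -0.45 to -0.21.

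Counts of called probe sets moved most. Against 165 higher and 244 lower they were 597 and 679 with the replicate block, 72 and 136 without a filter, and 453 and 485 with chip lot as a random block, and 368 were higher with it as a fixed block. The replicate block without pair 1, 2, 3 or 4 gave 258, 652, 223 and 237 higher and 353, 618, 367 and 413 lower, and the unblocked fit without 1 array gave 18 to 342 higher and 80 to 345 lower. Against 3 higher and 7 lower, the pathway genes called were 6 and 12 with the replicate block, 3 lower without a filter, 1 higher with a filter of 500, 4 to 7 higher and 6 to 11 lower with the block and without 1 pair, and 1 to 5 higher and 2 to 6 lower without 1 array. The causes were not tested. The block ended no call of a member and added none. A signal near the dim end, as for Mgp in subconfluent cells, limits how well its fold is known.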
